A study of Rattus norvegicus with 9 samples.

Results

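The genes of elastic fibers and microfibrils were followed during natural healing of the meniscus in rats. The set comprised 10 genes, chosen by symbol, and all 10 were found among the 17602 genes of the expression table. They were elastin (Eln), the fibrillins (Fbn1 and Fbn2), 3 fibulins (Fbln1, Fbln2 and Fbln5), 3 microfibril-associated proteins (Mfap2, Mfap4 and Mfap5) and the interface protein Emilin1.

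Elastic fibers let a tissue stretch and recoil. They have a core of crosslinked elastin and a mantle of microfibrils, which are bundles of fibrillin decorated with microfibril-associated proteins. Fibulins and EMILIN-1 join the elastin to the microfibrils, lysyl oxidases crosslink the elastin, and microfibrils without elastin also occur in ligament, skin and synovial connective tissue.

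RNA was sequenced from wild-type male Lewis rats aged 10 to 12 weeks, with 3 libraries labeled as biological replicates in each of 3 groups. The intact group was synovium, the lining tissue of the joint, from around the medial meniscus of knees without surgery. The sham group was the same tissue 1 week after the joint capsule had been opened and closed. The pMx group was regenerating tissue 1 week after partial medial meniscectomy, in which the front part of the medial meniscus is cut away. That surgery was done on both knees, and the sources used here do not say whether a library held 1 knee, 1 animal or several. The adjacent synovium had been trimmed from the pMx tissue, so surgery and tissue sampled cannot be told apart in any comparison with that group. RNA integrity, which the study recorded for each library, also rose from intact to sham to pMx without overlap, and it cannot be told apart from the groups either.

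Levels are given in TPM, a measure of transcript abundance that corrects for transcript length and has a fixed total of 1000000 in each library. The depth of the libraries is unknown from such values, and the error given is the spread between 3 libraries. Differences are log2 fold changes of TPM + 1 with their standard error (SE), from limma over 16512 genes (those detected, above 0 TPM, in 3 libraries or more). A gene passed the test at an adjusted p below 0.05, and a differentially expressed gene (DEG) also had an absolute log2 fold change above 1. These cutoffs are those of the study. The study does not name its test, so the DEGs here need not be the same as its DEGs.

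The second principal component of the expression values, 21.2% of the variance, set intact replicate 3 apart from the other libraries. That library held 36339 TPM of 7 skeletal muscle genes, against 51.4 to 2441 TPM in the other 8 libraries. It also had the lowest intact TPM of 9 of the 10 genes described here, all but Fbn2. The counts and sham versus intact log2 fold changes of the 10 genes are therefore given without it as well, while means, sums, shares and ratios include it. Of 5 synovial lining markers, Prg4 and Htra1 were at 1084 to 2986 TPM and 787 to 1652 TPM over the 9 libraries. Prg4 was lower in sham versus intact (log2 fold change -0.9955, adjusted p = 0.0170 from limma) and did not pass in pMx versus sham (0.12, adjusted p = 0.680). Htra1 was higher in pMx versus sham (log2 fold change 0.79, adjusted p = 4.18e-04 from limma). Cd55 fell by 1.02 in pMx versus sham, and neither Htra1 nor Cd55 passed in sham versus intact. Has1 fell by 0.65 in sham versus intact, a call kept in 11 of 19 alternatives. It did not pass in pMx versus sham (-0.47, adjusted p = 0.0524 from limma). Clic5 was at 436 to 503 TPM in intact synovium, 157 to 308 TPM in sham synovium and 8.86 to 17.25 TPM in pMx tissue.

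Between pMx and sham, 8 of the 10 genes passed the test, 5 of them higher and 3 lower in pMx tissue. Of all genes tested, 36.6% passed, 17.7% higher and 18.9% lower. The fibrillins, Emilin1, Mfap4 and Fbln2 were higher, Eln, Fbln5 and Fbln1 were lower, and Mfap2 and Mfap5 did not pass. DEGs numbered 5, against 8.21% of all genes, with Fbn2 and Emilin1 higher (3.36% of all genes) and Eln, Fbln5 and Fbln1 lower (4.85%). Fbln1 was no longer a DEG without sham replicate 3, pMx replicate 1 or pMx replicate 3, since its log2 fold change lay between -0.99 and -0.90. Between sham and intact, 6 genes passed, all higher in the sham group, against 12.7% of all genes (6.73% higher and 5.97% lower). These were the fibrillins, the 3 microfibril-associated proteins and Emilin1, whereas Eln and the fibulins did not pass. None of the 10 was lower, also not at an unadjusted p below 0.05. DEGs numbered 3 there (Fbn2, Mfap2 and Mfap5), all higher, against 1.96% of all genes (1.42% higher). Without intact replicate 3 the same count of genes passed, but 1 was a DEG, Fbn2, because the log2 fold changes of Mfap2 and Mfap5 came to 0.96 and 0.90. Those of Fbn2, Mfap4 and Emilin1 were then 1.44, 0.87 and 0.70, and those of Eln, Fbln1, Fbln2 and Fbln5, which did not pass, were 0.022, -0.069, 0.15 and -0.40. Between pMx and intact all 10 genes passed, 7 higher and 3 lower, against 50.6% of all genes (23.4% higher and 27.1% lower), and the counts were the same without intact replicate 3. Of these, 8 were DEGs, against 14.3% (6.4% higher and 7.89% lower). The libraries of the groups did not overlap for 8 genes in pMx versus sham, 6 in sham versus intact and 10 in pMx versus intact, beside 56.1%, 30.6% and 57.5% of all genes. The comparisons share libraries and are not independent of each other. The median log2 fold change of the 10 genes was 0.38 in pMx versus sham and 0.84 for sham versus intact, beside medians of -0.01 and -0.02 over all genes.

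**Figure D1:**
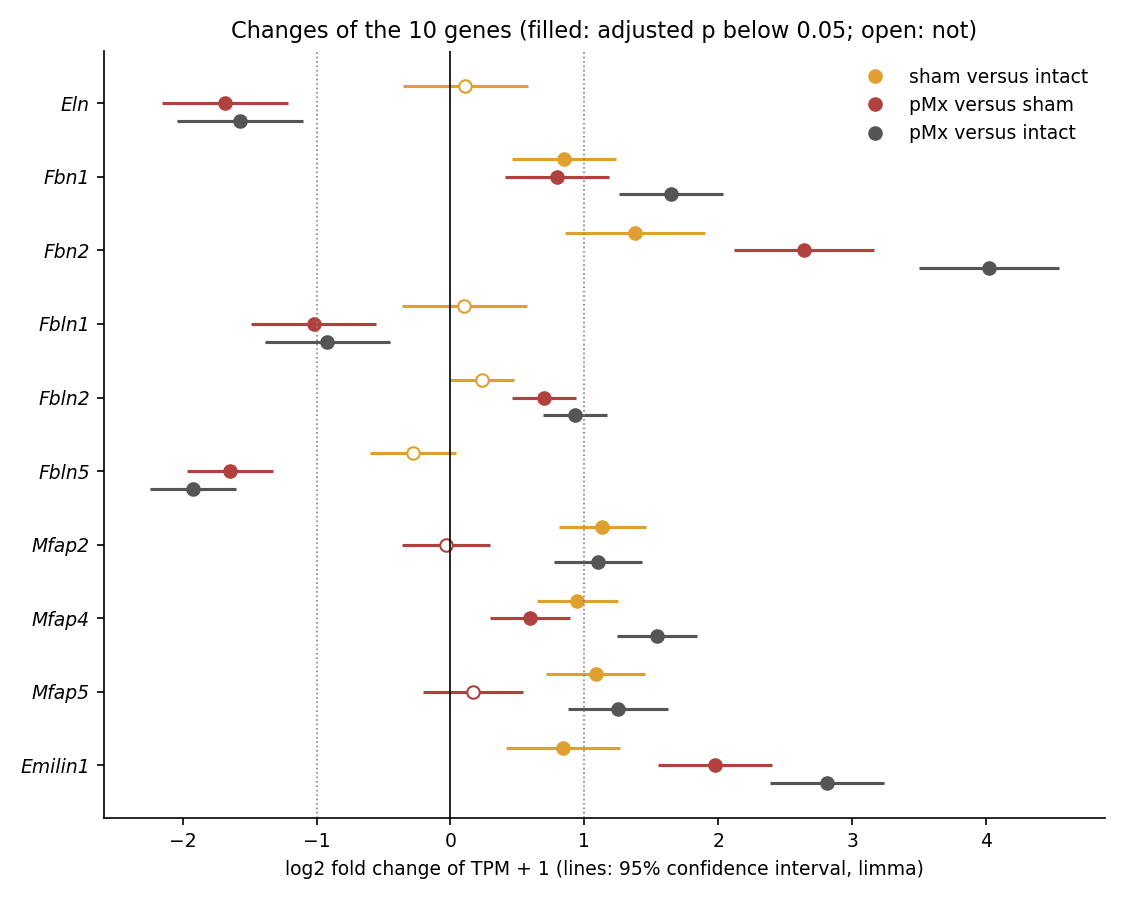
Log2 fold changes of TPM + 1 for the 10 genes in 3 comparisons, with 95% confidence intervals from limma as lines, filled points for an adjusted p below 0.05 and dotted lines at 1 and -1. Eln, Fbln1 and Fbln5 lie left of 0 in both comparisons with pMx. In sham versus intact they lie between -0.28 (Fbln5) and 0.11 (Eln), while Fbn2 reaches 4.03 in pMx versus intact.

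Eln (gene identifier 25043) encodes tropoelastin, the soluble unit of the elastic core. Its TPM was 265, 383 and 264 in the intact libraries, 271, 345 and 363 in the sham libraries and 82.0, 94.5 and 130 in the pMx libraries. All 3 pMx libraries lay below every other library, and the intact and sham libraries overlapped. The mean was 326 ± 48.3 TPM (SD, n = 3) for sham and 102 ± 24.9 TPM (SD, n = 3) for pMx, 3.19-fold lower. The log2 fold change was -1.68 (SE 0.21, limma adjusted p = 4.11e-04) in pMx versus sham and -1.57 in pMx versus intact (adjusted p = 3.01e-04). Of 7 smooth muscle and pericyte markers 4 were also lower in pMx versus sham, against 18.9% of all genes, and 3 did not pass. Among the 4, Tagln was near the threshold (adjusted p = 0.0447 from limma). All 5 adventitial-type fibroblast markers and all 5 adipocyte markers were lower too. The smooth muscle and pericyte sum was 5301 to 8015 TPM in intact and already 3736 to 4309 TPM in sham synovium. The part of these cell types in the result was not tested. Between sham and intact Eln did not pass the test, with a log2 fold change of 0.11 (95% confidence interval -0.36 to 0.58, adjusted p = 0.772 from limma). With 304 ± 68.1 TPM (SD, n = 3) Eln had the highest mean of the 10 genes in the intact group, with libraries that overlapped those of Mfap4. Mfap4 and Mfap5 lay above it in the sham group, and only Fbln5, Fbln1 and Fbn2 lay below it in the pMx group.

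Fbn1 and Fbn2 encode fibrillin-1 and fibrillin-2, the rods from which microfibrils are built. Fibrillin-2 is known mainly from embryonic tissues, and fibrillin-1 is the main form in the adult. Fbn1 (gene identifier 83727) was at 68.4, 83.5 and 55.2 TPM in intact synovium, 132, 141 and 101 TPM in sham synovium and 218, 238 and 192 TPM in pMx tissue. No library of one group overlapped another group, and the order was intact, sham, pMx. Its log2 fold change came to 0.80 for pMx versus sham (SE 0.17, limma adjusted p = 0.00666), 0.85 in sham versus intact (SE 0.17, limma adjusted p = 0.0181) and 1.65 in pMx versus intact (adjusted p = 7.59e-05). The sham versus intact call was lost without sham replicate 1 or sham replicate 2 (adjusted p = 0.0664 and 0.0726 from limma) and with only the 6 libraries compared in the fit (0.0597). Without intact replicate 3 the log2 fold change was 0.70 (adjusted p = 0.0222 from limma).

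Fbn2 (gene identifier 689008) was at 0.11, 0.07 and 0.22 TPM in intact synovium, 2.27, 2.68 and 1.13 TPM in sham synovium and 19.5, 20.7 and 13.1 TPM in pMx tissue. The groups did not overlap, and each step was wider than for any other gene of the set. The mean rose 15.2-fold from intact to sham and 8.76-fold from sham to pMx, 133-fold in all. On the log2 scale of TPM + 1, which understates changes below 1 TPM, the fold change was 1.38 in sham versus intact (SE 0.23, limma adjusted p = 0.00990). It was 2.64 in pMx versus sham (SE 0.23, limma adjusted p = 8.49e-05) and 4.03 in pMx versus intact. With a pseudocount of 0.1 the values were 3.16 and 3.12 for the first and second step. Fbn2 stayed the least abundant gene of the set in every group. In the pMx group its 13.1 to 20.7 TPM overlapped with the 16.2 to 21.6 TPM of Fbln1, and Fbn1 was still at 216 ± 23.0 TPM (SD, n = 3).

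**Figure D2:**
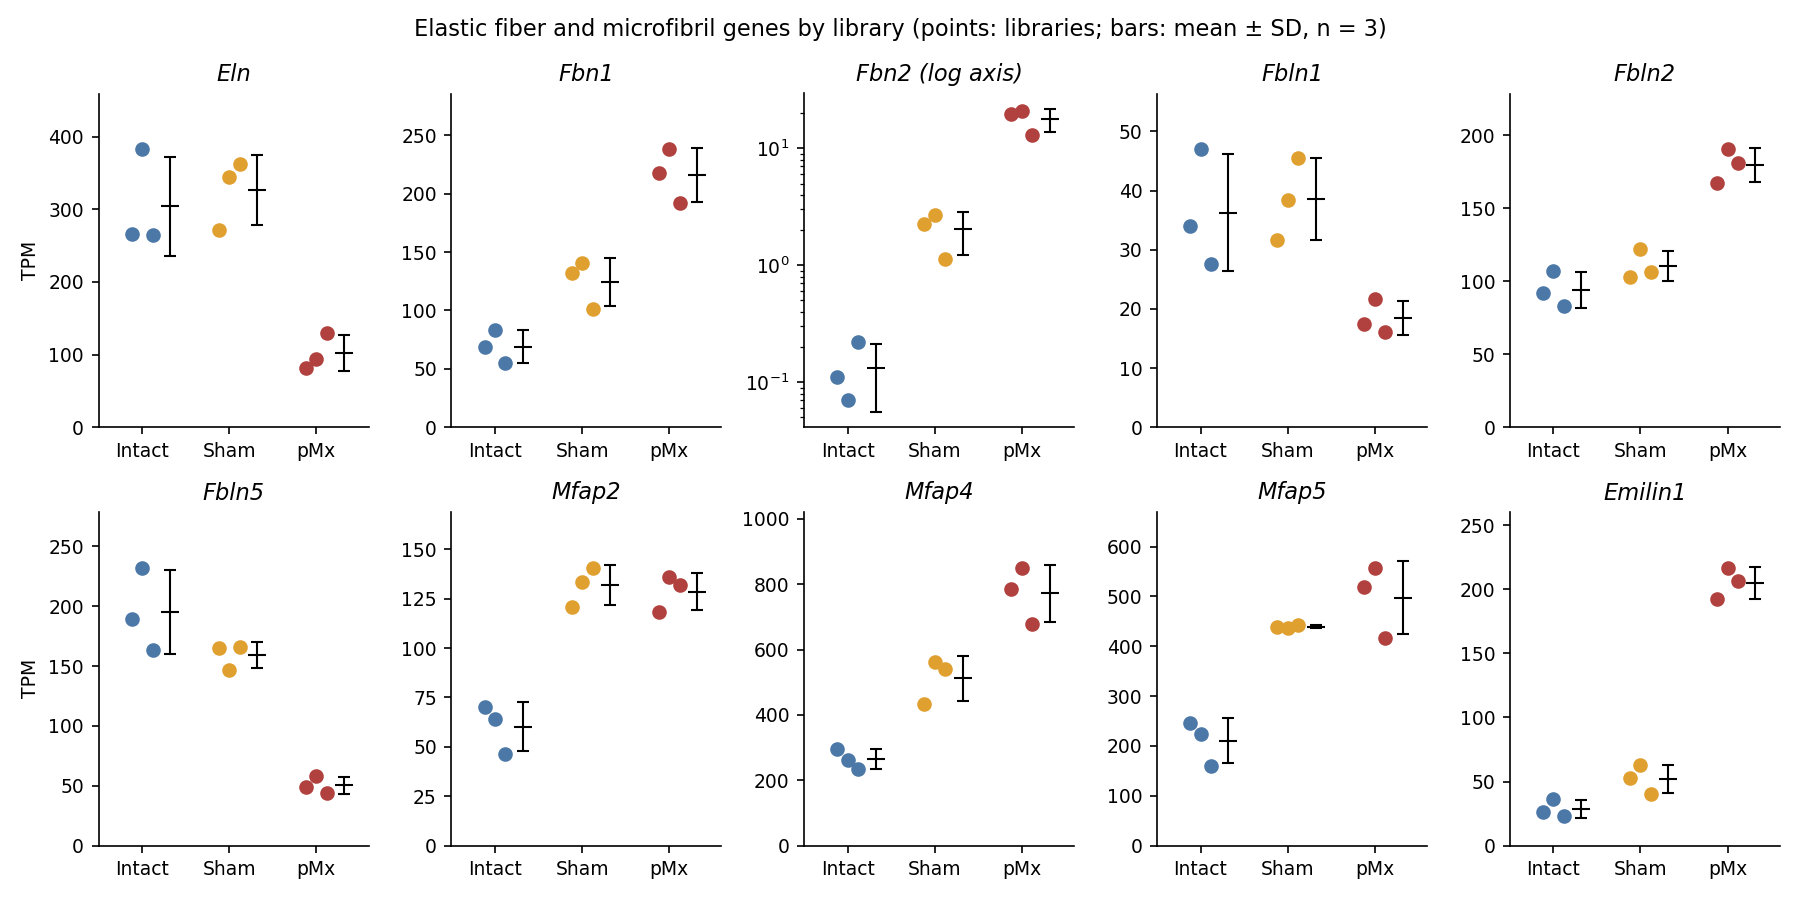
TPM of each of the 10 genes in the 9 libraries (points), with the group mean and SD (n = 3) as bars; the axis of Fbn2 is logarithmic and all others start at 0. Eln, Fbln1 and Fbln5 are lowest in the 3 pMx libraries, Mfap2 and Mfap5 separate the intact libraries from the rest, and Fbn1, Fbn2, Mfap4 and Emilin1 are ordered intact, sham, pMx without overlap.

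The microfibril-associated proteins bind fibrillin. Mfap2 and Mfap5 encode the related glycoproteins MAGP-1 and MAGP-2, and Mfap4 encodes a fibrinogen-domain protein that binds elastin, fibrillin and collagen. Mfap2 (gene identifier 313662) was at 70.2, 64.2 and 46.3 TPM in intact synovium, 121, 134 and 141 TPM in sham synovium and 118, 136 and 132 TPM in pMx tissue. The sham and pMx libraries overlapped, and all of them lay above the intact libraries. Mfap2 rose in sham versus intact by a log2 fold change of 1.14 (SE 0.14, limma adjusted p = 0.00468). In pMx versus sham it did not pass the test (log2 fold change -0.03, 95% confidence interval -0.36 to 0.29, adjusted p = 0.888 from limma). The span of Mfap2 overlaps that of Atp13a2 in RefSeq, and the sources used here do not say how reads shared by overlapping genes were counted. Mfap5 (gene identifier 362429) was likewise lowest in the intact group, with 247, 223 and 160 TPM in intact synovium, 439, 437 and 443 TPM in sham synovium and 518, 558 and 416 TPM in pMx tissue. Its pMx libraries spread on both sides of the sham libraries. The log2 fold change of Mfap5 was 1.09 in sham versus intact (SE 0.16, limma adjusted p = 0.00690) and 0.17 in pMx versus sham (95% confidence interval -0.20 to 0.54, adjusted p = 0.468).

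Because Mfap2 and Mfap5 both rose in sham versus intact and did not pass in pMx versus sham, the 250 bases before their annotated starts are shown, both on the plus strand. RefSeq promoter sequences of build GRCr8 were found for 6 of the 10 genes (Fbn1, Fbn2, Fbln2, Fbln5, Mfap2 and Mfap5). For Fbn1 and Fbn2 the annotated start is the ATG itself, so their windows are not shown. Capitals mark matches on either strand to the TATA box TATAAA, the CCAAT box, the GC box GGGCGG, the AP-1 site TGANTCA and the SMAD element CAGACA.
Mfap2, chr5:158597478-158597727: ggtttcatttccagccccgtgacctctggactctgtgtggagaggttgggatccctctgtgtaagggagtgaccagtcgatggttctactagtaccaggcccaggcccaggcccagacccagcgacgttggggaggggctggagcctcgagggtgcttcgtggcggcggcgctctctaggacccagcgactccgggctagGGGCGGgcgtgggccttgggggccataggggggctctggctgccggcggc
Mfap5, chr4:157399669-157399918: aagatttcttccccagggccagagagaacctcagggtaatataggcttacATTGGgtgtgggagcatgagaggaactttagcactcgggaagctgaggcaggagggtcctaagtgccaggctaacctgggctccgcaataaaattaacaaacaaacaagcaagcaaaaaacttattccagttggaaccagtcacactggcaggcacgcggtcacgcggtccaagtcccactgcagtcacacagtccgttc
The Mfap2 window held 1 GC box and the Mfap5 window 1 CCAAT box on the minus strand, so they had no match of the same kind. Among the 33469 promoters of the same length, 30.5% held a GC box, 34.0% a CCAAT box, 12.9% a TATA box, 6.34% an AP-1 site and 17.2% a SMAD element.

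Mfap4 (gene identifier 287382) rose in both steps. It was at 296, 261 and 236 TPM in intact synovium, 432, 563 and 540 TPM in sham synovium and 787, 851 and 678 TPM in pMx tissue. The 3 groups did not overlap. The log2 fold change came to 0.95 for sham versus intact (SE 0.13, limma adjusted p = 0.00557) and 0.59 in pMx versus sham (SE 0.13, limma adjusted p = 0.00802). Mfap4 had the highest mean of the set in the pMx group, 772 ± 87.4 TPM (SD, n = 3), with no overlap with Mfap5 in second place.

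Fibulins are glycoproteins that connect elastin, fibrillin and the cell surface. Fibulin-5 (Fbln5) guides elastin onto microfibrils and binds integrins, fibulin-1 (Fbln1) is found within elastic fibers and basement membranes, and fibulin-2 (Fbln2) bridges fibrillin and other matrix proteins. Fbln5 (gene identifier 29158) was at 190, 232 and 163 TPM in intact synovium, 165, 146 and 166 TPM in sham synovium and 49.0, 58.3 and 44.0 TPM in pMx tissue. Like Eln, it was low in the pMx libraries only. The intact and sham libraries overlapped through intact replicate 3 alone, and the other intact libraries lay above all sham libraries. It fell from a sham mean of 159 ± 10.9 TPM to 50.4 ± 7.23 TPM in pMx tissue (SD, n = 3 each), 3.15-fold lower, with a log2 fold change of -1.65 (SE 0.14, limma adjusted p = 7.92e-05). In sham versus intact its log2 fold change was -0.28 (95% confidence interval -0.60 to 0.041, adjusted p = 0.231 from limma). Without intact replicate 3 it was -0.40 (adjusted p = 0.0712 from limma), which did not pass either.

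Fbln1 (gene identifier 315191) was at 34.1, 47.0 and 27.7 TPM in intact synovium, 31.7, 38.4 and 45.5 TPM in sham synovium and 17.4, 21.6 and 16.2 TPM in pMx tissue. The pMx libraries lay below all others. Its log2 fold change came to -1.02 for pMx versus sham (SE 0.20, limma adjusted p = 0.00482) and 0.10 for sham versus intact (95% confidence interval -0.36 to 0.57, adjusted p = 0.787). Fbln2 (gene identifier 282583) moved the other way, with 92.1, 107 and 82.8 TPM in intact synovium, 102, 122 and 107 TPM in sham synovium and 167, 190 and 181 TPM in pMx tissue. The pMx libraries lay above all others, while intact and sham overlapped. Its log2 fold change came to 0.70 for pMx versus sham (SE 0.10, limma adjusted p = 0.00116) and 0.23 for sham versus intact (95% confidence interval -0.0052 to 0.47, adjusted p = 0.183).

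The windows before the starts of Fbln2 (plus strand) and Fbln5 (minus strand) are shown because these fibulins changed in opposite directions in pMx versus sham. Capitals mark the same motifs as above.
Fbln2, chr4:125261409-125261658: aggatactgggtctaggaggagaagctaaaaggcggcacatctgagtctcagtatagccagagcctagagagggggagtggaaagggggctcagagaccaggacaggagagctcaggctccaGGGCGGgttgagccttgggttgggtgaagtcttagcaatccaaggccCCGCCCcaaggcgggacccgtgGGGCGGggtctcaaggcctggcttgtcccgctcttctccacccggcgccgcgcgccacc
Fbln5, chr6:126742707-126742956: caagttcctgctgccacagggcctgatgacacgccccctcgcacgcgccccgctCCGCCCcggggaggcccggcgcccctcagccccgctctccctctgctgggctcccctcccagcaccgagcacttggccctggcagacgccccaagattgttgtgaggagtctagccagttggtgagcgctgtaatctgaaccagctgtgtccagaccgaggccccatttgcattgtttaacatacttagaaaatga
Fbln2 held 3 GC boxes and Fbln5 held 1, and neither window matched the other 4 motifs. The matches are a description of these letters only.

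Emilin1 (gene identifier 298845) encodes EMILIN-1, a glycoprotein at the boundary of elastin and microfibrils. It was at 26.4, 36.6 and 23.2 TPM in intact synovium, 53.1, 62.5 and 40.6 TPM in sham synovium and 192, 217 and 206 TPM in pMx tissue. The groups did not overlap, and the pMx libraries stood far above the rest. Its mean was 52.1 ± 10.997 TPM for sham and 205 ± 12.5 TPM in pMx tissue (SD, n = 3 each), 3.94-fold higher. The log2 fold change came to 1.98 for pMx versus sham (SE 0.19, limma adjusted p = 1.27e-04) and 0.84 for sham versus intact (SE 0.19, limma adjusted p = 0.0254). The second of these calls was lost without intact replicate 1, sham replicate 1 or sham replicate 2 (adjusted p = 0.0565, 0.0825 and 0.0887 from limma) and with only the 6 libraries compared (0.0803).

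Whether a gene changed by a different amount from sham to pMx than from intact to sham was tested as the difference of these steps in the same limma fit. It passed for 3 of the 10 genes, Eln, Fbln5 and Mfap2, all with the smaller or more negative step from sham to pMx. Of all genes, 6.65% passed (4.54% in that direction and 2.11% in the other). None of the 10 passed in the other direction, although Fbn2, Fbln2 and Emilin1 had an unadjusted p below 0.05. The step difference was -1.79 for Eln (SE 0.36, limma adjusted p = 0.0244), -1.37 for Fbln5 (SE 0.24, limma adjusted p = 0.0162) and -1.17 for Mfap2 (SE 0.25, limma adjusted p = 0.0298). These calls were lost without some single libraries, and fewer of all genes passed as well. The share of all genes was 1.91%, 3.66% and 1.22% without sham replicates 1, 2 and 3. That of Eln was lost without any 1 of the 3 sham libraries, pMx replicate 1 or pMx replicate 2 (adjusted p up to 0.117 from limma). That of Fbln5 was lost without sham replicate 1 or 3 (up to 0.0846), and that of Mfap2 without any 1 of the sham or pMx libraries (up to 0.140). Without intact replicate 3 these 3 genes still passed, but the share of all genes also rose, to 13.4%. Mfap5 and Emilin1 then passed too, with step differences of -0.73 and 1.27 (adjusted p = 0.0400 and 0.0338 from limma). For Fbn1 the steps were nearly equal, with a difference of -0.05 (95% confidence interval -0.72 to 0.62).

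Together the 10 genes made up 0.126% ± 0.0191 of all TPM among intact libraries, 0.190% ± 0.0129 among sham and 0.219% ± 0.0189 among pMx libraries (SD, n = 3 each). Within that sum, Eln took 24.1% ± 3.12 among intact, 17.1% ± 1.56 among sham and 4.74% ± 1.503 among pMx libraries (SD, n = 3 each). Fbln5 fell from 15.4% ± 0.725 to 8.43% ± 1.04 and 2.30% ± 0.130 in the same order. Mfap4 went from 21.1% ± 2.61 to 26.9% ± 1.92 and 35.2% ± 1.33, and Emilin1 from 2.26% ± 0.258 to 2.75% ± 0.581 and 9.41% ± 0.759. The share of Mfap5 was 16.6% ± 2.23, 23.3% ± 1.63 and 22.7% ± 1.71, and that of Fbn2 did not exceed 1% in any library.

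**Figure D3:**
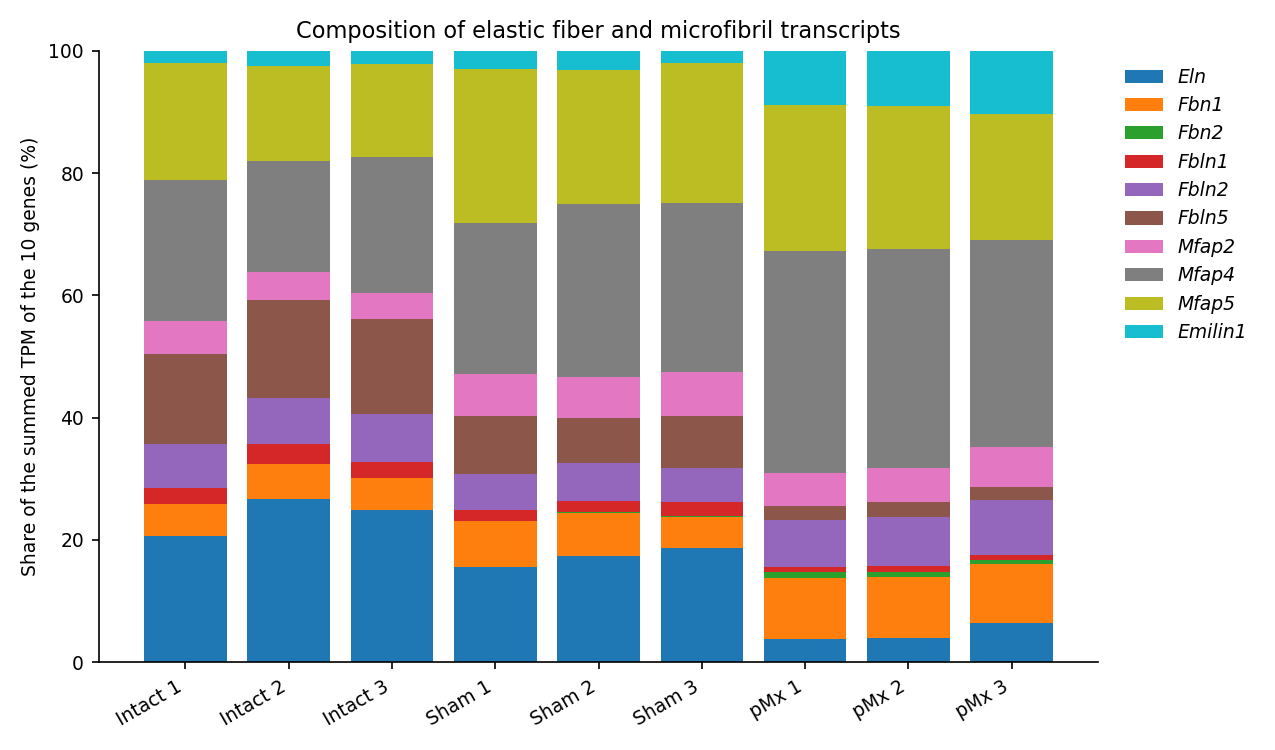
Share of each gene in the summed TPM of the 10 genes, in percent, for each of the 9 libraries. The Eln segment averages 24.1% in the intact, 17.1% in the sham and 4.74% in the pMx libraries, while Mfap4 grows from 21.1% to 35.2%.

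Ratios of TPM values within a library do not depend on its fixed total. The ratio of Eln to Fbn1 was 3.88, 4.58 and 4.79 in the intact libraries, 2.06, 2.45 and 3.57 in the sham libraries and 0.376, 0.397 and 0.676 in the pMx libraries. Elastin transcripts thus outnumbered those of fibrillin-1 in all 6 synovium libraries and were fewer in all 3 pMx libraries. The ratio of Fbn2 to Fbn1 was at most 0.00398 in the intact libraries, 0.0111 to 0.0190 in the sham libraries and 0.0681 to 0.0893 in the pMx libraries. The ratio of Mfap5 to Mfap2 stayed between 3.15 and 4.39 in all 9 libraries, with overlap between all groups. The sum of the 10 genes relative to that of the collagen genes Col1a1, Col1a2 and Col3a1 was 0.157 to 0.214 in the intact libraries, 0.0982 to 0.124 in the sham libraries and 0.0440 to 0.0479 in the pMx libraries. Those collagen chains are the main fibril-forming collagens of connective tissue, and their sum was 4949 to 8202 TPM in intact synovium, 15650 to 19870 TPM in sham synovium and 45649 to 49833 TPM in pMx tissue.

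With 3 libraries against 3, a two-sided exact permutation test cannot give a p below 0.1. The Eln to Fbn1, Fbn2 to Fbn1 and gene set to collagen ratios had exact p = 0.1 in each of the 3 comparisons (0.133 adjusted over the 12 comparisons of ratios). In pMx versus sham their log2 ratios differed by -2.49, 2.39 and -1.22. For Mfap5 to Mfap2 the differences were 0.20, -0.06 and 0.14 in pMx versus sham, sham versus intact and pMx versus intact (exact p = 0.3, 0.4 and 0.4).

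**Figure D4:**
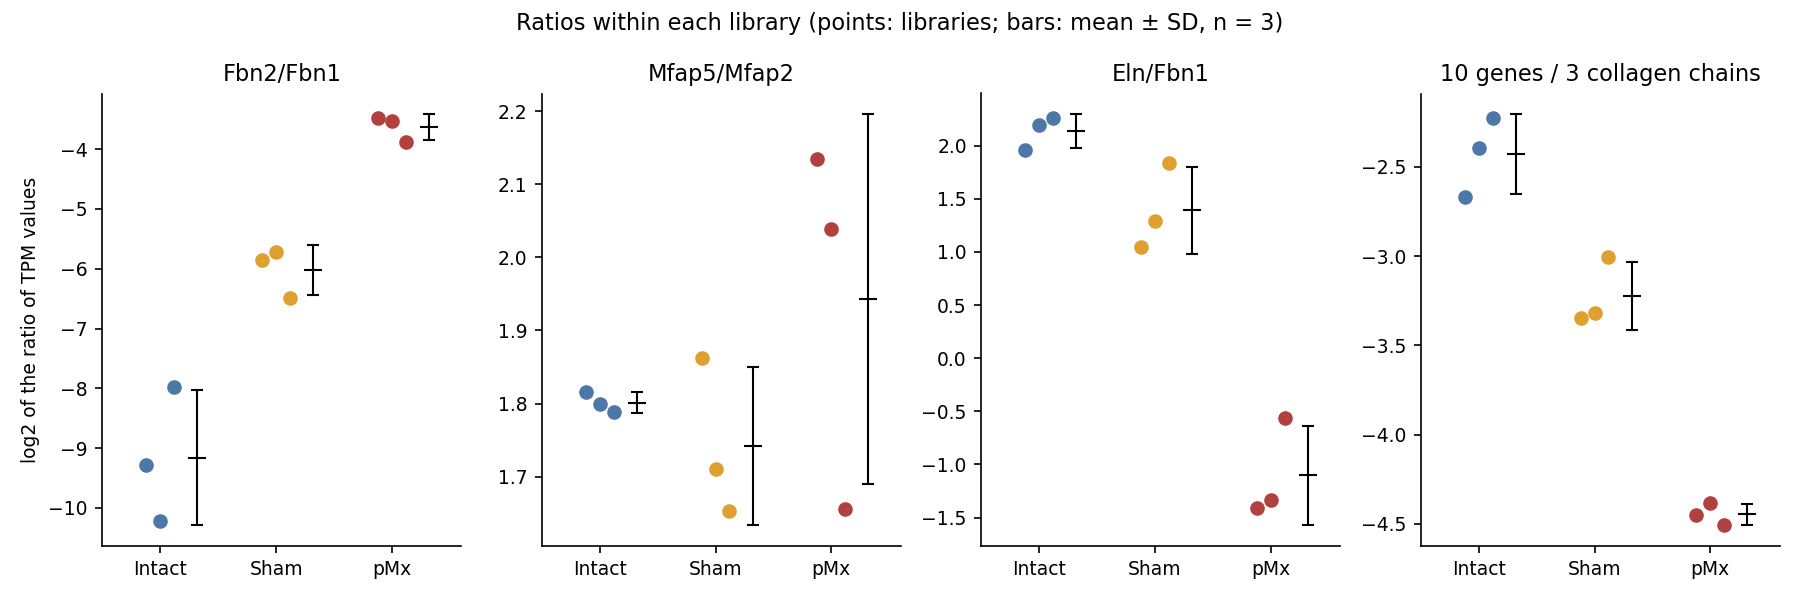
Log2 ratios of TPM values within each of the 9 libraries (points), with the group mean and SD (n = 3); the panels have separate axes that do not start at 0. The Eln to Fbn1 and gene set to collagen ratios fall from intact to sham to pMx without overlap, Fbn2 to Fbn1 rises, and the Mfap5 to Mfap2 ratios of the groups overlap.

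The other genes of elastic fiber assembly and turnover were taken from 8 lists with 43 genes, of which 42 were tested. In pMx versus sham 20 were higher (47.6%, against 17.7% of all genes) and 9 lower (21.4%, near the 18.9% of all genes). In sham versus intact 13 were higher (31%, against 6.73%) and 3 lower (7.14%, near the 5.97% of all genes). Without sham replicate 3 the higher count in pMx versus sham was 13, and that of all genes went from 2926 to 2083. In sham versus intact the higher count was 5 without sham replicate 1 and 6 without sham replicate 2. The higher count of all genes went from 1112 to 424 and 384 in these fits. The lower count was 5 without intact replicate 3, where that of all genes went from 985 to 1937. It was 1 without any other single library except pMx replicate 3. In pMx versus intact 20 were higher (47.6%, against 23.4%) and 10 lower (23.8%, against 27.1%). The counts of the single lists below stand against the same shares of all genes. The median log2 fold change of the 42 genes was 0.29 in pMx versus sham and 0.14 for sham versus intact.

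Several of these calls were lost when 1 library was left out, which also changed how many of all genes passed. In sham versus intact 12.7% of all genes passed with all libraries, 4.4% without sham replicate 1 and 3.8% without sham replicate 2. All 30 in pMx versus intact were kept without any 1 library, as were 20 of 29 in pMx versus sham and 6 of 16 in sham versus intact (Ltbp2, Lox, Mmp2, Mmp12, Ctsk and Elane). For the step from intact to sham, Itgb3 was lost without 8 of the 9 libraries taken singly, all but intact replicate 2 (adjusted p up to 0.160 from limma). Adamtsl2 and Mmrn2 were lost without 7, all but intact replicate 3 and pMx replicate 3 (up to 0.107 and 0.114). Emilin2 was lost without 7, all but intact replicates 1 and 3 (up to 0.122), and Mmp9 without 7, all but sham replicates 2 and 3 (up to 0.0836). Ctsa was lost without 5 (intact replicate 2, the 3 sham libraries or pMx replicate 1, up to 0.103), Emilin3 without intact replicate 2, sham replicate 1 or sham replicate 2 (up to 0.0969), and Loxl1, Loxl2 and Glb1 without sham replicate 1 or 2 (up to 0.0877, 0.0651 and 0.0899). In pMx versus sham, Ctsk was lost without any 1 of the 6 sham and pMx libraries (up to 0.0823) and Ctss without any of these except sham replicate 2 (up to 0.0975). Loxl1 was lost without intact replicate 1 or any of the 6 except sham replicate 2 (up to 0.138), Itgav without intact replicate 1 or any except sham replicate 1 (up to 0.123), and Neu1 without intact replicate 1 or any except pMx replicate 3 (up to 0.158). Emilin3 and Mmp7 were lost without sham replicate 1, sham replicate 3 or pMx replicate 1, and also without pMx replicate 3 and pMx replicate 2, respectively (up to 0.0833 and 0.0838). Hmcn1 was lost without sham replicate 3 or pMx replicate 2 (up to 0.0678), and Adamtsl2 without sham replicate 2 (0.0513).

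Of the lysyl oxidases, which crosslink elastin and collagen, 4 of 5 were higher in pMx versus sham, and Lox, Loxl1 and Loxl2 were also higher in sham versus intact. Lox was at 41.2, 32.8 and 24.8 TPM in intact synovium, 68.0, 80.5 and 61.9 TPM in sham synovium and 295, 271 and 281 TPM in pMx tissue. Its groups did not overlap, and its log2 fold change came to 2.00 for pMx versus sham and 1.09 for sham versus intact (adjusted p = 7.25e-05 and 0.00764 from limma). Loxl2, Loxl3 and Loxl1 had log2 fold changes of 1.25, 0.97 and 0.45 in pMx versus sham, and Loxl4 one of -0.35 that did not pass (adjusted p = 0.123 from limma). In sham versus intact Loxl2 and Loxl1 had 0.79 and 0.68.

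The other fibulin genes divided in pMx versus sham, with 2 higher and 2 lower. Efemp1, which encodes fibulin-3, was at 66.1, 64.7 and 41.3 TPM in intact synovium, 57.3, 50.8 and 61.3 TPM in sham synovium and 4.20, 3.92 and 6.22 TPM in pMx tissue. Only the pMx libraries were low, with a log2 fold change of -3.33 against sham (adjusted p = 2.63e-05 from limma). Fbln7 fell by 0.78, while Hmcn1 rose by 0.62. Efemp2, which encodes fibulin-4, a protein needed for elastin crosslinking, rose by 0.72, from 139, 143 and 132 TPM in sham synovium to 218, 249 and 217 TPM in pMx tissue. None of the 4 passed in sham versus intact.

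Latent TGF-beta binding proteins resemble fibrillins and bind microfibrils. Ltbp4, which also takes part in elastin assembly with fibulin-5, was at 199, 215 and 175 TPM in intact synovium, 167, 147 and 185 TPM in sham synovium and 60.9, 65.7 and 63.1 TPM in pMx tissue. It fell by 1.38 on the log2 scale in pMx versus sham (adjusted p = 4.09e-05 from limma), and Ltbp1 fell by 0.91. Ltbp2 was at 3.93, 3.28 and 3.02 TPM in intact synovium, 15.2, 13.1 and 8.68 TPM in sham synovium and 34.0, 38.6 and 34.8 TPM in pMx tissue. Its log2 fold change came to 1.495 for pMx versus sham and 1.57 for sham versus intact, whereas Ltbp3 did not pass in either comparison. Among the relatives of Emilin1, the multimerin gene Mmrn1 fell from 14.8, 11.3 and 17.9 TPM in sham synovium to 0.22, 0.53 and 0.5 TPM in pMx tissue (log2 fold change -3.45, adjusted p = 1.60e-05 from limma). Mmrn2, a multimerin of endothelial cells, fell by 0.62 in pMx versus sham and by 0.55 in sham versus intact. Emilin3 rose by 0.68 and 0.83 in the same comparisons, and stayed below 5 TPM. Emilin2 rose by 0.61 in sham versus intact and had a log2 fold change of -0.28 in pMx versus sham that did not pass.

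Of 9 elastin-degrading proteases tested, 4 were higher and 2 lower in pMx versus sham, against 17.7% and 18.9% of all genes. In sham versus intact 4 were higher and 1 lower, against 6.73% and 5.97%. Mmp12, the macrophage elastase, had the largest increase in all 3 comparisons, with 1.40, 0.22 and 0.07 TPM in intact synovium, 30.7, 44.4 and 7.66 TPM in sham synovium and 160, 122 and 138 TPM in pMx tissue. Its log2 fold change was 3.99 in the step from intact to sham and 2.596 in the step from sham to pMx (adjusted p = 0.00601 and 0.00760 from limma). The lysosomal protease Ctsl had the largest decrease in pMx versus sham, a log2 fold change of -1.09, with 1811, 1483 and 1853 TPM in sham synovium and 813, 820 and 771 TPM in pMx tissue. Elane, the neutrophil elastase, was at 0.49 to 0.86 TPM in intact synovium and was listed at 0 in all pMx libraries and 2 sham libraries, and was the gene of this list that fell in sham versus intact. Of 7 microfibril-binding ADAMTS and ADAMTS-like genes, 2 were higher and 1 lower in pMx versus sham, against the same 17.7% and 18.9%. Adamts6 had the largest increase (log2 fold change 0.95) and Adamtsl5 the decrease (-1.16), from 38.0, 34.1 and 39.8 TPM in sham synovium to 15.4, 17.4 and 15.4 TPM in pMx tissue. Adamtsl2 alone passed in sham versus intact, with -0.35.

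Of 6 integrin subunits for fibrillin or fibulin, 4 were higher for pMx versus sham, against 17.7% of all genes. For sham versus intact 1 was higher, Itgb3 (log2 fold change 0.51), against 6.73%. Itga5 rose most of these from sham to pMx, with 68.1, 74.4 and 55.1 TPM in sham synovium and 135, 150 and 155 TPM in pMx tissue (log2 fold change 1.15). In the elastin receptor complex, Glb1 had log2 fold changes of 0.63 for pMx versus sham and 0.66 for sham versus intact, and passed in both. The study names Glb1 as the gene of beta-galactosidase, and values per gene do not separate its transcript forms. Of these 2 steps, Neu1 passed only in pMx versus sham (0.40) and Ctsa only in sham versus intact (0.53). This does not show that the steps differed, since the step difference of neither gene passed (adjusted p = 0.9755 and 0.313 from limma). In pMx versus intact all 3 genes of the complex were higher, Glb1 by 1.28, Neu1 by 0.78 and Ctsa by 0.67.

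**Figure D5:**
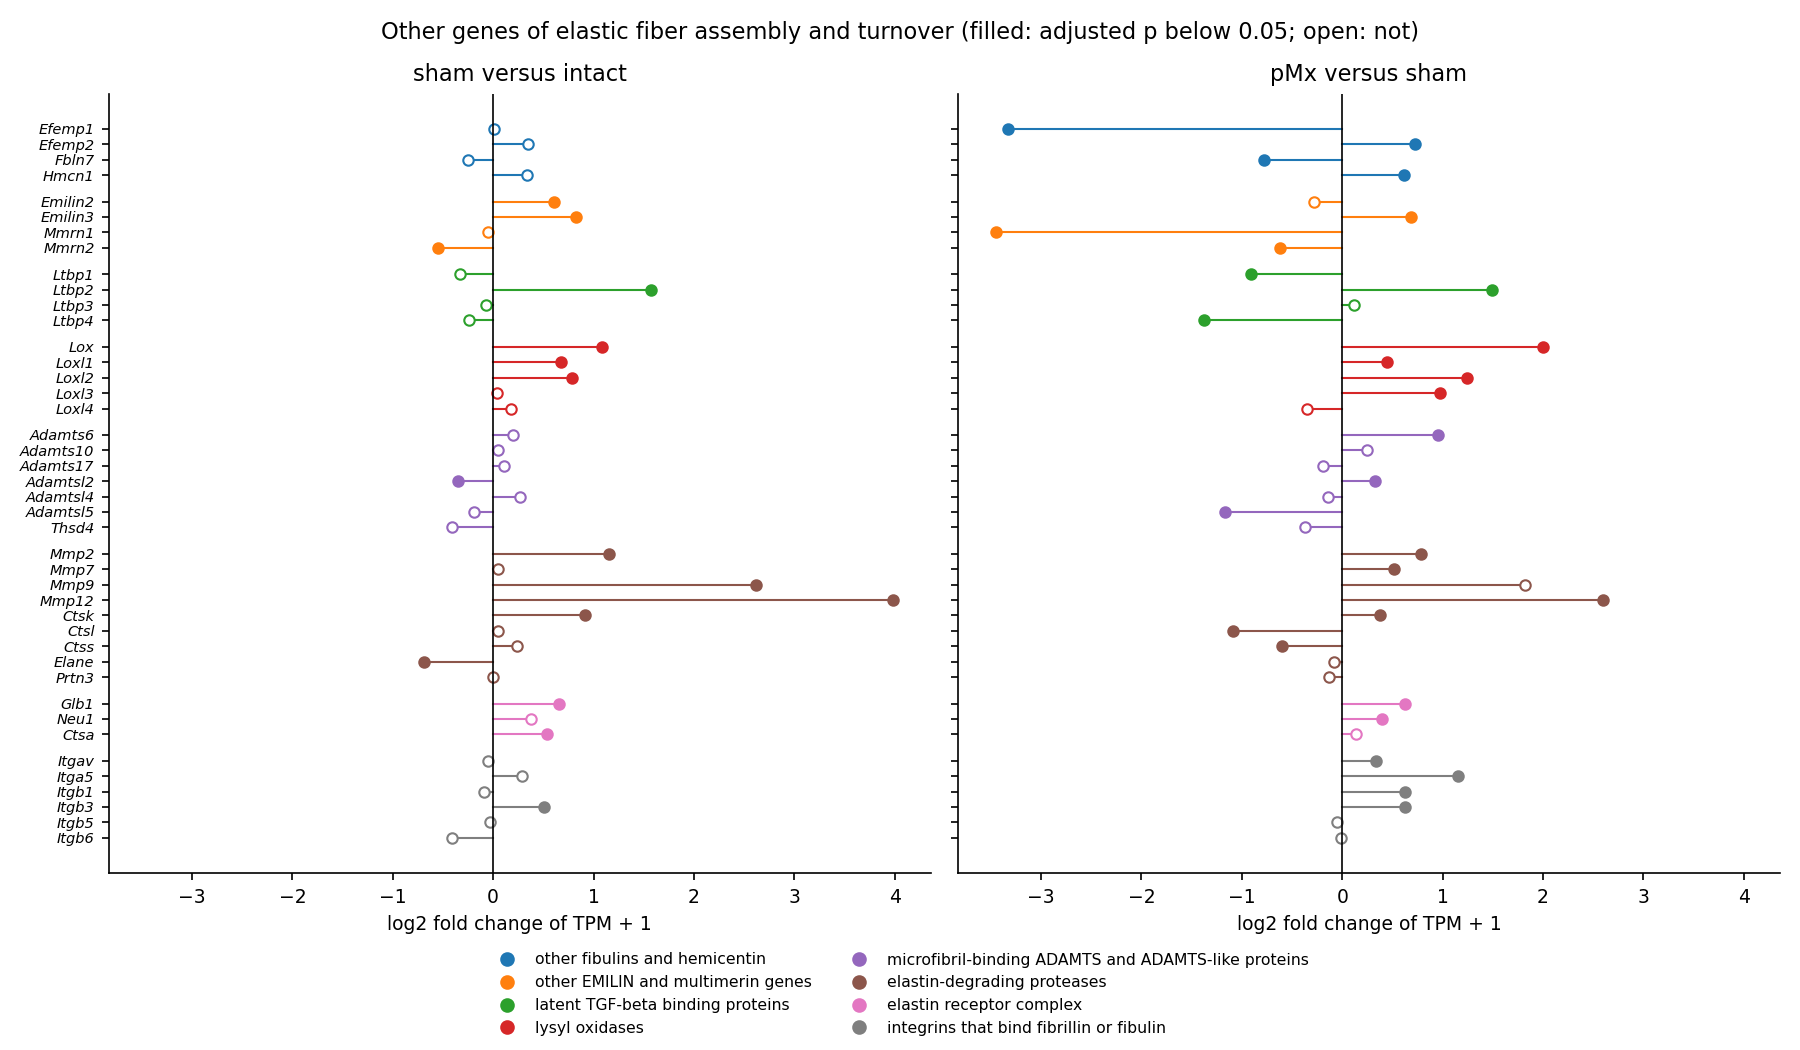
Log2 fold changes of TPM + 1 in sham versus intact (left) and pMx versus sham (right) for 42 other genes of elastic fiber assembly and turnover, colored by list, with filled points for an adjusted p below 0.05. Efemp1 (-3.33) and Mmrn1 (-3.45) stand out on the low side in pMx versus sham, and Mmp12 on the high side in both.

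Markers of other cell types were counted in the same way. The shares of all genes in pMx versus sham were 17.7% higher and 18.9% lower. Of 7 smooth muscle and pericyte markers, 4 fell in pMx versus sham (Acta2, Myh11, Cnn1 and Tagln) and none rose. The call of Tagln was near the threshold (adjusted p = 0.0447 from limma) and was kept in 10 of 19 alternatives. The sum of the 7 markers was 5301 to 8015 TPM in intact synovium, 3736 to 4309 TPM in sham synovium and 2221 to 2445 TPM in pMx tissue. Rgs5, Notch3 and Des did not pass in pMx versus sham (log2 fold changes 0.08, -0.15 and 0.12). All 5 markers of adventitial-type fibroblasts fell, with sums of 466 to 681, 692 to 774 and 248.5 to 269 TPM in the same order. All 5 adipocyte markers fell too, from 4278 to 4610 TPM in sham synovium to 302 to 475 TPM in pMx tissue, with Lep at 0 in 2 pMx libraries. Of 5 endothelial markers only Vwf fell, and the sums of the sham and pMx libraries overlapped (456 to 523 and 447 to 567 TPM). The 6 fibroblast markers summed to 5214 to 6832, 7859 to 8618 and 12759 to 13010 TPM in intact, sham and pMx. In pMx versus sham, 4 of them were higher, Dcn was lower and Pdgfra did not pass. Of 5 synovial lining markers, 1 was higher and 2 were lower in pMx versus sham, and of 5 macrophage markers 1 was higher and 1 lower. Counts of 1 of 5 are near the shares of all genes. Of 6 fibrocartilage markers 2 were higher and 1 lower. Their sum was 265 to 811 TPM in intact synovium, which overlapped the sham libraries. It was 518 to 602 TPM in sham synovium and 974 to 1176 TPM in pMx tissue. Most of it was Comp there, at 471 to 565 TPM in sham synovium and 786 to 933 TPM in pMx tissue. In the same order, Acan was at 6.84 to 32.5 and 182 to 236 TPM, and Sox9 at 0.55 to 1.23 and 4.55 to 5.92 TPM. Chad was at 1.43 to 43.0 and 0.08 to 0.23 TPM, and Col2a1 at 0.14 to 2.26 and 0.56 to 0.89 TPM. The cartilage gene Cnmd was at 0.44 to 1.05 TPM in sham synovium and was listed at 0 in pMx tissue. None of the 7 skeletal muscle markers passed in any comparison. In such bulk tissue, fewer cells of a type and less RNA per cell cannot be told apart. The part of these cell types in the decreases of Eln, Fbln5 and Fbln1 and in the increases of the other genes was not tested.

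The genes whose pattern over the 9 libraries was most like that of 3 members were sought among 10701 other genes with a mean of at least 5 TPM, by Pearson's r of log2(TPM + 1). For Eln they were Mlana, Efhd1 and Tlcd5 (r = 0.986, 0.980 and 0.980). Mlana was at 26.9 to 43.1 TPM in the 6 intact and sham libraries and 6.47 to 10.7 TPM in pMx tissue. For Fbn1 they were Fstl1, Mmp14 and Dclk1 (r = 0.996, 0.992 and 0.991), and for Fbn2 Arfgap1, Timp1 and Igdcc4 (r = 0.996, 0.996 and 0.995). Mmp14 encodes a membrane-bound matrix protease and Timp1 an inhibitor of such proteases. Timp1 was at 180 to 207 TPM in intact synovium, 288 to 386 TPM in sham synovium and 915 to 1014 TPM in pMx tissue. These r values rest on 9 libraries in 3 groups and hold the differences between groups as well as those between libraries.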

How the data were processed

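The values the authors deposited are TPM for 17602 genes, computed at BGI and in the Dr. Tom system from oligo-dT-captured, dUTP-labeled libraries and rounded to 2 decimals. The submitters' processing notes name HISAT2 2.0.4 and the build mRatBN7.2. The counting tool, the annotation and any filter are not given in the sources used here. Because every library sums to 1000000, a large rise of some genes lowers the others, and no counting error can be given.

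Groups and replicate numbers came from the sample titles. From the deposited TPM, log2(TPM + 1) was fitted for 16512 genes over all 9 libraries, with 1 mean per group, in limma 3.58.1 under R 4.3.3 (eBayes with a mean-variance trend). Benjamini-Hochberg adjustment ran over all genes of a comparison. The procedure was tested on simulated data. Ratios were tested by exact permutation with SciPy 1.17.1. Matplotlib 3.10.9 drew the figures. RefSeq promoter sequences (GRCr8) were matched by gene identifier. Ctsv, a list gene, was not matched to a symbol of the table.

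The 10 genes, the lists and the tests were chosen with earlier results of these data known. All 10 genes are named, as are all genes of pathway lists of up to 5, the largest increase and decrease among genes that passed in longer pathway lists, and the 3 closest patterns to Eln, Fbn1 and Fbn2. Marker lists are given by counts and summed TPM, and single markers, as well as genes named for a lost call, were chosen after their values were seen. Alternatives were quantile normalization or median-of-ratios rescaling, a pseudocount of 0.1 or 0.01, no filter or a mean of at least 1 TPM, a fit on 6 libraries, eBayes without the trend or robust, a replicate block, an adjusted p below 0.01 and leaving out each library.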

Additional observations from a re-analysis of the deposited data

How the results depend on the processing

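In pMx versus sham and pMx versus intact, each of the 10 genes kept its side of the adjusted p of 0.05 in limma under every alternative tried, a threshold of 0.01 included. The direction changed only for Mfap2 in pMx versus sham, which did not pass, to 0.016 without sham replicate 3 and 0.027 without pMx replicate 1 (range -0.094 to 0.027 with single libraries left out). In sham versus intact the calls of Fbn1 and Emilin1 were lost in 4 and 5 settings, a threshold of 0.01 among them, and Fbln1, which did not pass, went to -0.069 without intact replicate 3 and -0.021 without sham replicate 3 (range -0.069 to 0.304). With each library left out in turn, DEGs among the 10 genes numbered 1 to 4 in sham versus intact and 4 to 5 in pMx versus sham. The step difference was the least stable result. Its lower calls numbered 0 to 4 and its higher calls 0 to 1 with single libraries left out, where 1.22% to 13.4% of all genes passed. A count of 1 higher call appeared with median-of-ratios rescaling, with quantile normalization and with the replicate block. For Fbn2 the step difference went from 1.26 to -0.033 and -0.689 with pseudocounts of 0.1 and 0.01, because its intact level is far below 1 TPM, and for Fbn1 it went to 0.096, 0.040, 0.136 and 0.029 without intact replicate 3, sham replicate 1, sham replicate 2 and pMx replicate 3 (range -0.334 to 0.136). Among the 42 other pathway genes, the higher count in pMx versus sham was 11 at an adjusted p below 0.01 and 13 to 21 with single libraries left out. In sham versus intact the higher count was 6 with only the 6 libraries compared, 5 at 0.01 and 5 to 11 with single libraries left out, and the lower count was 1 with the 6 libraries, with the replicate block and at 0.01, and 1 to 5 with single libraries left out. The share of all genes that passed also varied with single libraries left out. It was 27.05% to 45.31% in pMx versus sham and 3.8% to 17.98% in sham versus intact. The ratios kept their direction with 1 added to each TPM, with the replicate block and with each library of a comparison left out, the settings run for them.

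The libraries of the groups share replicate numbers but no stated source, so the numbers were not taken as pairs. Around the group means, libraries with the same number correlated at 0.035 to 0.485 between pMx and sham and at -0.493 to 0.002 between sham and intact. Among sham libraries, pMx replicates 2 and 3 correlated most with their own number. Deviations from a mean of 3 libraries depend on each other, so these correlations cannot decide on pairing. With the replicate block, the numbers of the 10 genes that passed were 5 higher and 3 lower in pMx versus sham and 6 higher in sham versus intact, as without it. The call of Mfap2 in the step difference was lost (adjusted p = 0.0609 from limma) and that of Emilin1 gained (0.0392). Rescaling or quantile normalization moved the median of all genes by less than 0.1 on the log2 scale. Read depth is unknown from TPM, so the precision of low values such as those of Fbn2 in the intact libraries cannot be stated beyond their spread.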
